A study of Mus musculus with 4 samples.

Results

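The linker histone H1 family was followed through 4 RNA sequencing libraries of cultured heart muscle cells. The family was taken as the 7 genes whose symbols are H1f0, H1fx, Hist1h1a, Hist1h1b, Hist1h1c, Hist1h1d and Hist1h1e in the record titles, of 27267 genes in all. Each of the 7 has 1 transcript record. They divide into 5 replication-dependent genes, Hist1h1a to Hist1h1e, and 2 replication-independent genes, H1f0 and H1fx. In current nomenclature Hist1h1a is H1f1, Hist1h1b is H1f5, Hist1h1c is H1f2, Hist1h1d is H1f3, Hist1h1e is H1f4 and H1fx is H1f10.

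Linker histones bind the DNA where it enters and leaves the nucleosome and help to fold the nucleosome chain into denser chromatin. The replication-dependent subtypes lie among the clustered core histone genes and are made mainly in S phase, when new chromatin is assembled. Their messenger RNAs normally end in a stem-loop rather than a poly(A) tail, although some clustered histone genes also give polyadenylated forms in cells that have left the cycle. H1f0 and H1fx stand alone in the genome and give polyadenylated messages outside S phase as well, and H1f0 is known for its accumulation in differentiated and resting cells. Heart muscle cells of the newborn mouse are about to leave the cell cycle, and both microRNAs tested here were studied for their effect on the proliferation of these cells.

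The cells were cardiomyocytes of CD1 mice at postnatal day 1, and RNA was taken 72 h after transfection. Tested cells received a mimic of hsa-miR-590-3p or of hsa-miR-199a-3p, and control cells received the Caenorhabditis elegans microRNA cel-miR-67 or transfection reagent alone (mock). All mimics were used at 50 nM. There was 1 library per condition, from a primary culture that can hold other cells of the heart, so no test was possible and no difference has a replicate check. Libraries held 31638930 to 38745528 reads assigned to transcripts. The 95% intervals given for ratios, levels and shares describe the counting error of reads alone and hold no variation between cultures. Reads amplified by PCR and carrying no molecular identifier do not each stand for a separate molecule. The intervals can therefore be too narrow even for counting error. A gene met the criterion used here when its CPM (scaled reads relative to library size, with a prior count of 0.5) differed by a factor of 2 or more from each of the controls, on the same side of both. It was applied to the 13502 genes that averaged 1 CPM or more, 5 of the 7 H1 genes included. Hist1h1a and Hist1h1b lay under that minimum.

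The promoters of the 7 genes show how the classes differ in their start regions, and they are given for RefSeq on GRCm38.p6, from 130 to 11 bases before the annotated start, 5′ to 3′ on the strand of the gene. Capitals mark matches, on either strand, to the H1 box AAACACA, to CCAAT and to the TATA-like TATANA, and neighbouring TATA-like matches overlap.
H1f0, chr15:79028082-79028201, strand +: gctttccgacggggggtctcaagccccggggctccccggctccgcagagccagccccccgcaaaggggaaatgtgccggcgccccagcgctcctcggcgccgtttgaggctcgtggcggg
H1fx (H1f10), chr6:87981493-87981612, strand -: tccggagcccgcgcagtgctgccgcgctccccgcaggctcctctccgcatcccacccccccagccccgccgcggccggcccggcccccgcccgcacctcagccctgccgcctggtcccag
Hist1h1c (H1f2), chr13:23738677-23738796, strand +: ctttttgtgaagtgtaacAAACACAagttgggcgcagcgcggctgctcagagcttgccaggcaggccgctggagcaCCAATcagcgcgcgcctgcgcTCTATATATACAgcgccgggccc
Hist1h1d (H1f3), chr13:23554902-23555021, strand +: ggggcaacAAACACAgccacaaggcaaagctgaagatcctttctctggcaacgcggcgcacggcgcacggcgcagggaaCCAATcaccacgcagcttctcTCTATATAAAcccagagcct
Hist1h1e (H1f4), chr13:23622569-23622688, strand -: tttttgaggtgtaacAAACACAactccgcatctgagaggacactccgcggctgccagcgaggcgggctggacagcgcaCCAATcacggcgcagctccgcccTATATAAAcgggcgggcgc
Hist1h1a (H1f1), chr13:23763538-23763657, strand +: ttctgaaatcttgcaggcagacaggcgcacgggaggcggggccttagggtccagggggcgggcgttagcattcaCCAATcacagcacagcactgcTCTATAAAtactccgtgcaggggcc
Hist1h1b (H1f5), chr13:21780636-21780755, strand -: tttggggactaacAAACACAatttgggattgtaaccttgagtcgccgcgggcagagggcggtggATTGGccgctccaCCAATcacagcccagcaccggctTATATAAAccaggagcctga

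In the whole windows, which run from 250 bases before to 50 bases after the start, the H1 box was present in 4 of the 7 genes, Hist1h1b, Hist1h1c, Hist1h1d and Hist1h1e. It was found in 7.18% of all 32851 promoter windows. Together with CCAAT and the TATA-like letters it was present in the same 4 genes and in 0.959% of all windows. CCAAT alone was in all 5 replication-dependent genes, including Hist1h1a, and in 37.4% of all windows, and TATANA in the same 5 genes and 24.7% of windows. H1f0 and H1fx held none of the 3 in these windows. The GC box GGGCGG, counted on both strands, was present in H1f0, H1fx, Hist1h1a, Hist1h1b and Hist1h1e and in 35.7% of windows. G and C made up 75.0% of the H1f0 window and 77.7% of the H1fx window, against 45.7% to 54.3% in the replication-dependent genes and a median of 52.7% over all windows. A match describes letters and no binding was measured.

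Of the 2 microRNAs, the mouse table of mature sequences used here holds the 199a-3p form. It is shown with its seed, bases 2 to 8, in capitals, because the seed is the part by which a microRNA mainly recognises its targets, and the sequence of the transfected human mimic itself is not in the files used here.
mmu-miR-199a-3p (RefSeq, GRCm38.p6): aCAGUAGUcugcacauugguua

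Levels per transcript length were dominated by a pair of genes in every library. H1f0 had 63.0 and 85.8 RPKM (reads scaled for transcript length and library size, the authors' value) in the libraries of hsa-miR-590-3p and of hsa-miR-199a-3p, against 62.4 RPKM in cel-miR-67 cells and 65.0 RPKM in mock cells. Hist1h1c had 26.3 and 30.98 RPKM under the 2 microRNAs, against 42.5 RPKM in cel-miR-67 cells and 44.99 RPKM in mock cells. H1fx came next in all 4 libraries and the other 4 genes stayed at or below 1.69 RPKM. On these record lengths the first 3 places, H1f0, Hist1h1c and H1fx, were separated by more than counting error in each library. Below them the order was the same in the hsa-miR-590-3p library and both controls, Hist1h1e, Hist1h1d, Hist1h1a and Hist1h1b, and another in the hsa-miR-199a-3p library. In both controls Hist1h1e followed H1fx, apart from Hist1h1d by more than counting error, with 1.53 RPKM in cel-miR-67 cells and 1.69 RPKM in mock cells. Under hsa-miR-199a-3p it was last at 0.39 RPKM, behind Hist1h1b at 0.92, Hist1h1a at 0.76 and Hist1h1d at 0.47 RPKM, where the interval of each overlapped that of the next. Under hsa-miR-590-3p the 4 low genes lay between 0.22 and 0.51 RPKM with overlapping intervals between neighbours.

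**Figure D1:**
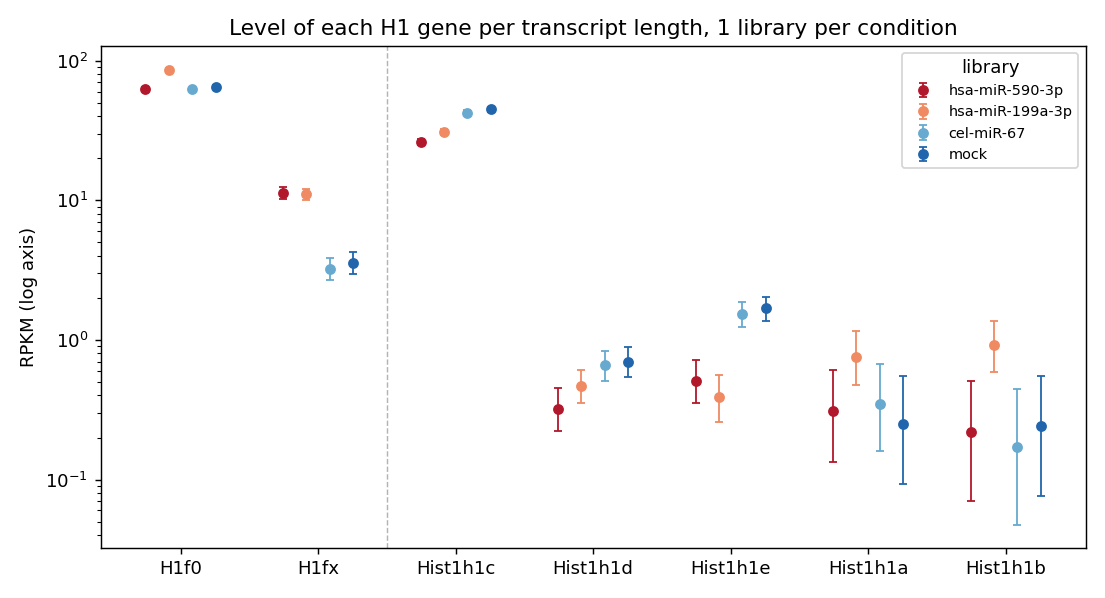
RPKM (log axis) of each of the 7 H1 genes in the hsa-miR-590-3p, hsa-miR-199a-3p, cel-miR-67 and mock libraries, with replication-independent genes left of the dashed line and bars giving 95% Poisson intervals for counting error. H1fx stands at 11.3 and 11.1 RPKM under the microRNAs, against 3.24 and 3.56 RPKM in the controls, and Hist1h1e at 0.51 and 0.39 against 1.53 and 1.69 RPKM.

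H1fx, a linker histone with a sequence apart from the other somatic subtypes, was the H1 gene that met the criterion on the higher side, and it did so under both microRNAs. It had 439 reads in the hsa-miR-590-3p library and 483 in the hsa-miR-199a-3p library, against 125 in cel-miR-67 cells and 127 in mock cells, all of them placed uniquely. Both microRNA libraries lay above both controls and close to each other. Under hsa-miR-590-3p the CPM ratio was 3.32 over cel-miR-67 (95% interval 2.72 to 4.09) and 2.97 over mock (2.43 to 3.65). Under hsa-miR-199a-3p it was 3.21 over cel-miR-67 (2.63 to 3.94) and 2.87 over mock (2.36 to 3.52). Between the 2 microRNA libraries the ratio, hsa-miR-590-3p over hsa-miR-199a-3p, was 1.04 (0.908 to 1.18). Both microRNAs were set against the same control libraries, so these pairs of ratios are not independent.

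H1f0, the subtype of differentiated cells and the H1 gene with the most reads, did not meet the criterion. Its 4998 reads under hsa-miR-590-3p and 7657 under hsa-miR-199a-3p stood against 4924 in cel-miR-67 cells and 4742 in mock cells, all placed uniquely. The hsa-miR-590-3p level was 141 CPM, below the 147 CPM of cel-miR-67 and the 156 CPM of mock, with ratios of 0.960 (0.923 to 0.999) and 0.906 (0.871 to 0.943). That direction depends on the scaling: by total counts the log2 ratio over cel-miR-67 was 0.01, where the scaling used here gave -0.06. The hsa-miR-199a-3p level was 190 CPM, above both controls, with ratios of 1.29 (1.25 to 1.34) and 1.22 (1.17 to 1.26). Set against hsa-miR-199a-3p, the hsa-miR-590-3p library was lower in H1f0, with a ratio of 0.744 (0.717 to 0.771).

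Of the replication-dependent genes, Hist1h1c, Hist1h1d and Hist1h1e had lower levels under either microRNA than in either control. Hist1h1c, the most abundant of the class, had 1427 reads under hsa-miR-590-3p and 1894 under hsa-miR-199a-3p, against 2296 in cel-miR-67 cells and 2246 in mock cells. Its CPM ratios under hsa-miR-590-3p were 0.588 over cel-miR-67 (0.550 to 0.628) and 0.546 over mock (0.511 to 0.584), and under hsa-miR-199a-3p 0.685 (0.644 to 0.728) and 0.636 (0.598 to 0.677), all short of the criterion. From 91.1% to 92.5% of its reads were placed uniquely.

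Hist1h1e had 34 reads under hsa-miR-590-3p and 29 in hsa-miR-199a-3p cells, against 101 in cel-miR-67 cells and 103 in mock cells, and met the criterion on the lower side under both microRNAs. The ratios under hsa-miR-590-3p were 0.319 over cel-miR-67 (0.209 to 0.474) and 0.284 over mock (0.187 to 0.422). Under hsa-miR-199a-3p they were 0.238 (0.152 to 0.363) and 0.212 (0.136 to 0.323). Uniquely placed reads were 85.3% and 89.7% of the total under the microRNAs, against 73.3% in cel-miR-67 cells and 80.6% in mock cells. Counted on unique reads alone, 29 and 26 against 74 and 83, the log2 ratio over cel-miR-67 was -1.42 in hsa-miR-590-3p cells and -1.76 in hsa-miR-199a-3p cells, with -1.70 and -2.04 over mock.

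Hist1h1d had 33 reads under hsa-miR-590-3p and 54 under hsa-miR-199a-3p, against 67 in cel-miR-67 cells and 66 in mock cells. In hsa-miR-590-3p cells it met the criterion, with ratios of 0.466 over cel-miR-67 (0.297 to 0.717) and 0.430 over mock (0.274 to 0.662), whose intervals also hold differences short of 2-fold. Under hsa-miR-199a-3p its ratios of 0.669 (0.459 to 0.972) and 0.617 (0.423 to 0.898) did not meet it. Set against each other, the 2 microRNA libraries gave 0.696 (0.437 to 1.09) for hsa-miR-590-3p over hsa-miR-199a-3p, so at this depth the gene could not be told apart between them.

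Hist1h1a and Hist1h1b, the remaining replication-dependent subtypes, were barely detected. Hist1h1b had 5 reads under hsa-miR-590-3p and 24 under hsa-miR-199a-3p, against 4 in cel-miR-67 cells and 5 in mock cells. Hist1h1a had 8 and 22 reads under the microRNAs, against 9 in cel-miR-67 cells and 6 in mock cells. The hsa-miR-199a-3p library was the high one for both genes, and the other 3 libraries lay together. Under hsa-miR-199a-3p the ratios of Hist1h1b were 4.98 (1.71 to 19.8) and 3.62 (1.35 to 12.2), and those of Hist1h1a 2.03 (0.898 to 5.01) and 2.77 (1.09 to 8.34). With both genes added, hsa-miR-199a-3p gave 46 reads against 13 in cel-miR-67 cells and 11 in mock cells, ratios of 2.94 (1.56 to 5.93) and 3.16 (1.61 to 6.76), and hsa-miR-590-3p gave 13 reads, with ratios of 0.946 (0.404 to 2.22) and 1.02 (0.420 to 2.505). The pair was added after the values of both were seen.

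**Figure D2:**
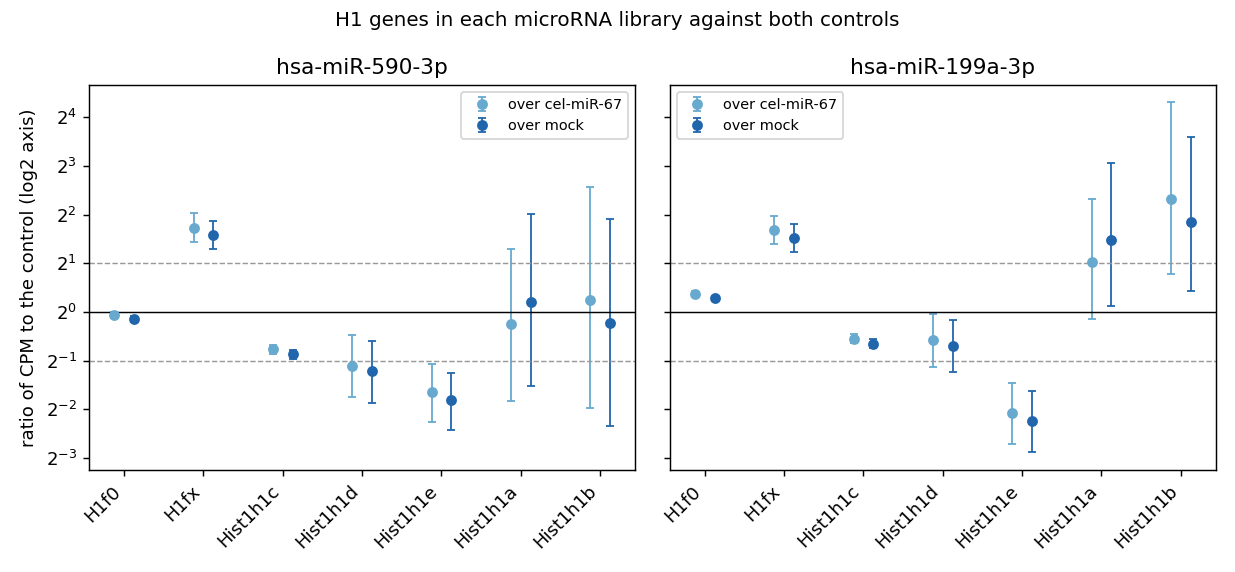
CPM ratio (log2 axis) of each H1 gene in the hsa-miR-590-3p (left) and hsa-miR-199a-3p (right) library over cel-miR-67 and over mock, with 95% counting intervals and dashed lines at 2-fold. H1fx lies above the upper and Hist1h1e below the lower dashed line in both panels, while Hist1h1a and Hist1h1b lie above 1 under hsa-miR-199a-3p, with ratios of 2.03 to 4.98.

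The records behind these counts differ in how their length compares with the current annotation. The deposited records of Hist1h1c, Hist1h1d and Hist1h1e are 1578, 2977 and 1931 bases long, while RefSeq on GRCm38.p6 gives these genes spans of 725, 776 and 782 bases. The records are thus longer by 853, 2201 and 1149 bases. Those of Hist1h1a and Hist1h1b are 747 and 672 bases, against spans of 745 and 794 bases. H1f0 and H1fx differ from their spans by 11 and 64 bases. The order of levels and every share or ratio between genes given per length rest on these lengths, while ratios of 1 gene between libraries do not. With the span in place of the record length, Hist1h1c would stand at 57.1 and 67.4 RPKM under the microRNAs, against 92.4 RPKM in cel-miR-67 cells and 97.9 RPKM in mock cells. H1f0 would stand at 63.3 and 86.2 RPKM, against 62.7 and 65.4 RPKM, so it would stay first under the microRNAs and come second to Hist1h1c in the controls. Hist1h1e would also pass H1fx in both controls, at 3.78 against 3.44 RPKM in cel-miR-67 cells and 4.17 against 3.77 RPKM in mock cells. Where in a record the reads fell is not given, so reads of the short stem-loop form and of longer forms of Hist1h1c, Hist1h1d and Hist1h1e cannot be told apart. The labels name a TruSeq RNA kit, whose usual protocol selects polyadenylated RNA, and do not say whether that step was used, so how fully each class was captured was not tested.

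The counts of H1 genes past the criterion stand beside the share of all measured genes that met it. Under hsa-miR-590-3p 1 of the 5 measured H1 genes was at least 2-fold higher than both controls, against 0.356% of all measured genes, and 2 were at least 2-fold lower, against 0.23%. Under hsa-miR-199a-3p 1 was higher, against 2.4% of genes, and 1 was lower, against 2.34%. The lower genes, Hist1h1d and Hist1h1e, averaged 1.61 and 2.02 CPM, while the shares cover genes of every level above the minimum. With a minimum mean of 5 CPM, 0 H1 genes were lower under either microRNA. Regardless of size, 1 lay above and 4 below both controls under hsa-miR-590-3p, against 35.6% and 36.6% of genes, and 2 lay above and 3 below under hsa-miR-199a-3p, against 40.2% and 41.9%. Of those 4, H1f0 was below cel-miR-67 by a log2 ratio of -0.06 and above it, at 0.01, by total counts and by the authors' RPKM. Over all 7 genes the median log2 ratio was -0.24 over cel-miR-67 and -0.20 over mock in hsa-miR-590-3p cells. In hsa-miR-199a-3p cells it was 0.37 and 0.28. These medians include the barely detected Hist1h1a and Hist1h1b. Among the 5 measured H1 genes the middle value was that of Hist1h1c throughout. It was -0.77 and -0.87 for hsa-miR-590-3p and -0.55 and -0.65 for hsa-miR-199a-3p. The sign of the hsa-miR-199a-3p median thus depends on the genes with few reads. The median of all measured genes was within 0.02 of 0. With 1 library per condition these counts describe the libraries and are no test of the family.

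**Figure D3:**
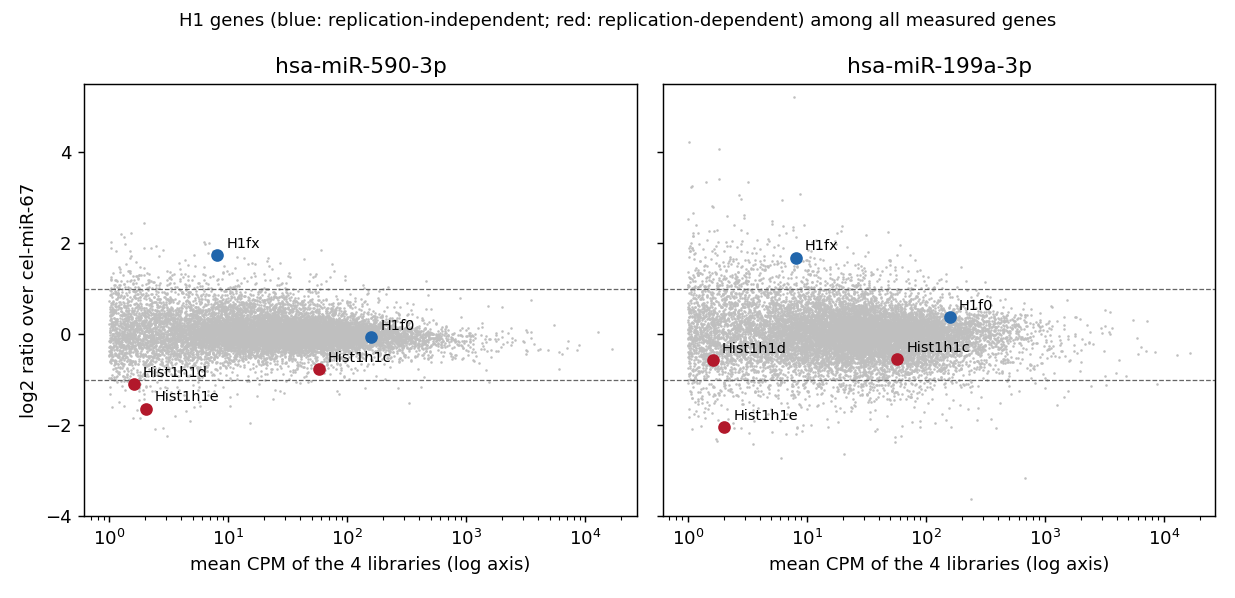
Log2 CPM ratio over cel-miR-67 against the mean CPM of the 4 libraries (log axis) for all 13502 measured genes (grey) in the hsa-miR-590-3p (left) and hsa-miR-199a-3p (right) library, with dashed lines at 2-fold. Of the 5 measured H1 genes, H1fx lies at 1.73 and 1.68 and Hist1h1e at -1.64 and -2.05 (hsa-miR-590-3p first in each pair), where the central 95% of all genes spans -0.67 to 0.88 and -1.12 to 1.20.

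The control libraries lay close to each other in the 5 measured H1 genes, and Hist1h1a and Hist1h1b had too few reads to tell. With cel-miR-67 over mock, log2 ratios ran from -0.42 to 0.42, both extremes from the few reads of Hist1h1b and Hist1h1a. The other 5 genes had ratios of 0.891 to 0.943. The intervals of H1f0, 0.943 (0.906 to 0.982), and of Hist1h1c, 0.929 (0.876 to 0.985), did not hold 1. For H1f0 the controls thus differed by more than hsa-miR-590-3p did from cel-miR-67, where the ratio was 0.960. None of the 5 measured H1 genes differed 2-fold, against 0.652% of all genes higher and 1.33% lower. Between the microRNAs, hsa-miR-590-3p over hsa-miR-199a-3p, none of the 5 differed 2-fold either, against 2.71% of genes higher and 1.87% lower. Below the minimum level, Hist1h1b gave 0.237 (0.0707 to 0.635) and Hist1h1a 0.414 (0.159 to 0.966) in that comparison.

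Summed by class, replication-dependent reads were lower under both microRNAs, and replication-independent reads were higher under hsa-miR-199a-3p. The 5 replication-dependent genes together had 1507 reads under hsa-miR-590-3p and 2023 under hsa-miR-199a-3p, against 2477 in cel-miR-67 cells and 2426 in mock cells. The ratios were 0.576 (0.540 to 0.614) and 0.534 (0.5004 to 0.570) for hsa-miR-590-3p. They were 0.678 (0.639 to 0.720) and 0.629 (0.593 to 0.668) in hsa-miR-199a-3p cells. Hist1h1c carries most of these sums. H1f0 and H1fx together had 5437 and 8140 reads under the microRNAs, against 5049 in cel-miR-67 cells and 4869 in mock cells. Their ratios were 1.02 (0.980 to 1.06) and 0.960 (0.923 to 0.998) for hsa-miR-590-3p, while 1.34 (1.29 to 1.39) and 1.26 (1.22 to 1.31) were those of hsa-miR-199a-3p. By total counts the hsa-miR-590-3p value over mock lay on the other side, at 0.036 on the log2 scale against -0.06. All 7 genes together stood at 196 CPM under hsa-miR-590-3p and 252 CPM under hsa-miR-199a-3p, against 225 CPM in cel-miR-67 cells and 240 CPM in mock cells.

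The make-up of the H1 pool within a library does not depend on the scaling between libraries. Replication-dependent genes took 21.7% of H1 reads under hsa-miR-590-3p (exact binomial interval 20.7% to 22.7%) and 19.9% under hsa-miR-199a-3p (19.1% to 20.7%), against 32.9% under cel-miR-67 (31.9% to 34.0%) and 33.3% in mock (32.2% to 34.4%). The microRNA libraries were both lower than both controls, by more than the counting error of each library, and variation between cultures was not measured. Per length the share was 27.1% and 25.7% of H1 RPKM under the microRNAs, against 40.8% and 41.1% in the controls. On annotated spans it was 44.4% and 42.3% under the microRNAs, against 60.0% and 60.4%. On record lengths, the ratio of replication-independent to replication-dependent RPKM was 2.69 and 2.89 under the microRNAs, against 1.45 in cel-miR-67 cells and 1.43 in mock cells. Within the pool, H1fx took 11.1% and 8.49% of H1 RPKM under the microRNAs, against 2.92% and 3.06% in the controls. Its RPKM was 22.2 and 28.4 times that of Hist1h1e under the microRNAs, against 2.12 and 2.11 times in the controls. This pair holds the most raised and the most lowered measured H1 gene, and Hist1h1e had 34 and 29 reads under the microRNAs. The factor also rests on record lengths. On annotated spans H1fx stood at 12.0 and 11.7 RPKM under the microRNAs, against 1.26 and 0.963 RPKM for Hist1h1e. In cel-miR-67 and mock cells it lay below Hist1h1e, at 3.44 against 3.78 and 3.77 against 4.17 RPKM. All these values describe transcripts and say nothing of the amounts of H1 protein.

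**Figure D4:**
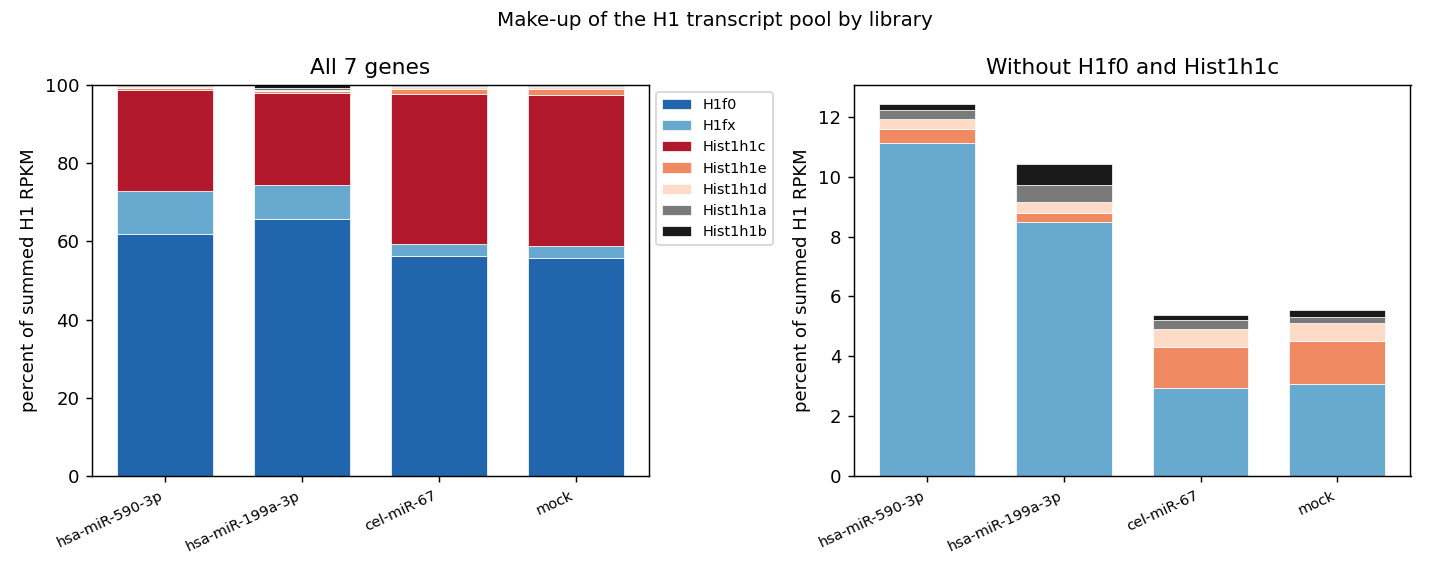
Share of the summed RPKM of the 7 H1 genes taken by each gene (percent) in the hsa-miR-590-3p, hsa-miR-199a-3p, cel-miR-67 and mock libraries, with the 5 less abundant genes enlarged on the right. Hist1h1c takes 25.8% and 23.8% under the microRNAs, against 38.3% and 38.6% in the controls.

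Of the germline H1 genes, none reached the minimum of 1 CPM. Hist1h1t and H1fnt, testis subtypes, had 0 reads in all 4 libraries, which allows up to 0.0745 to 0.0987 CPM when 3 reads are taken as the limit. H1foo, the oocyte subtype, had 1 read under hsa-miR-590-3p and 0 under hsa-miR-199a-3p, against 2 in cel-miR-67 cells and 0 in mock cells. Hils1, a spermatid H1-like gene, had 21 and 8 reads under the microRNAs, against 15 in cel-miR-67 cells and 8 in mock cells, so the microRNA libraries and the controls overlapped. Its mean of 0.376 CPM was of the order of those of Hist1h1a (0.310 CPM) and Hist1h1b (0.255 CPM).

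The genes whose pattern over the 4 libraries was most like that of each measured H1 gene were found by the Euclidean distance between centred log2 CPM values, among the 9589 genes that averaged 10 CPM or more. For H1fx they were Dtl, which directs Cdt1 to degradation in S phase (distance 0.43), Tk1, thymidine kinase (0.45), and Arhgap19 (0.46). Dtl had 1022 and 1085 reads under the microRNAs, against 388 in cel-miR-67 cells and 386 in mock cells. For Hist1h1c they included Kat2b, a histone acetyltransferase (0.05), and Tnnt2, cardiac troponin T (0.10). Kat2b had 3341 and 4596 reads under the microRNAs, against 5446 in cel-miR-67 cells and 5500 in mock cells. For Hist1h1d they were Gpd1, a glycerol-phosphate dehydrogenase, Kat2b and Tnnt2, at 0.21 to 0.25. For Hist1h1e they were Clu, clusterin (0.49), Myl4, the atrial light chain (0.63), and Ptgs2, cyclooxygenase-2 (0.72). For H1f0 they were Ndufaf5, Rps15 and Ap1m1, at 0.02 to 0.03. A likeness over 4 libraries is a description.

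Among other histone genes, most measured clustered core genes lay below the controls and most replication-independent variants above them, where of all measured genes 36.6% lay below and 35.6% above under hsa-miR-590-3p, and 41.9% below and 40.2% above in hsa-miR-199a-3p cells. Of 63 clustered core histone genes, which like the Hist1h1 genes are replication-dependent as a rule, 9 had a mean of at least 1 CPM, and of these 7 lay below and 0 above both controls under hsa-miR-590-3p. Under hsa-miR-199a-3p 8 lay below and 1 above. Their median log2 ratios were -0.26 over cel-miR-67 and -0.49 over mock for hsa-miR-590-3p, and -0.46 and -0.77 in hsa-miR-199a-3p cells. With uniquely placed reads, 4 lay below and 0 above both controls in hsa-miR-590-3p cells, and 5 below and 1 above in hsa-miR-199a-3p cells. How many of the 9 reached the minimum level on unique reads is not given, so these counts do not show genes changing side. Hist2h3c1, a histone H3 gene, met the criterion under hsa-miR-199a-3p with 84 reads, against 143 in cel-miR-67 cells and 157 in mock cells, and had 95 under hsa-miR-590-3p. Hist1h2bc, an H2B gene and the most abundant, had 333 and 441 reads under the microRNAs, against 503 in cel-miR-67 cells and 568 in mock cells. Hist3h2a, an H2A gene and the next most abundant, had 337 and 310 reads, against 337 in cel-miR-67 cells and 328 in mock cells. Scaled, these were 9.53 and 7.70 CPM under the microRNAs, against 10.1 CPM in cel-miR-67 cells and 10.8 CPM in mock cells. Hist1h4i, an H4 gene, was the member above both controls, with 76 reads in hsa-miR-199a-3p cells, against 41 in cel-miR-67 cells and 46 in mock cells.

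Of 9 replication-independent core histone variants, 7 lay above both controls under each microRNA, with 2 below under hsa-miR-590-3p and 1 below under hsa-miR-199a-3p. None met the criterion. The median log2 ratio was 0.12 over cel-miR-67 and 0.14 over mock for hsa-miR-590-3p. For hsa-miR-199a-3p it was 0.50 and 0.49. H2afx, the variant phosphorylated at DNA breaks, had log2 ratios of 0.71 over cel-miR-67 and 0.63 over mock in hsa-miR-590-3p cells, and of 1.02 and 0.95 in hsa-miR-199a-3p cells. Cenpa, the centromeric H3, had 0.85 and 0.89 in hsa-miR-590-3p cells, and 0.90 and 0.94 in hsa-miR-199a-3p cells. H3f3a and H3f3b, which encode the H3.3 variant and had the most reads of the list, lay on opposite sides of the controls in hsa-miR-590-3p cells, at -0.61 and -0.38 for H3f3a and at 0.06 and 0.14 for H3f3b. In hsa-miR-199a-3p cells H3f3a was at -0.08 over cel-miR-67 and 0.15 over mock, and H3f3b at 0.15 and 0.24.

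S-phase genes, the programme in which replication-dependent H1 genes are normally transcribed, all lay above both controls. This held for 18 of 18 genes under each microRNA, with median log2 ratios of 0.53 over cel-miR-67 and 0.69 over mock in hsa-miR-590-3p cells and of 0.98 and 1.01 in hsa-miR-199a-3p cells. Of all measured genes, 35.6% lay above both controls under hsa-miR-590-3p and 40.2% under hsa-miR-199a-3p. In hsa-miR-590-3p cells Tk1 met the criterion, and Tk1, Ccna2, Ccne1, E2f1, Mcm2, Mcm7 and Rrm2 did under hsa-miR-199a-3p. The share of all measured genes at least 2-fold higher than both controls was 0.356% under hsa-miR-590-3p and 2.4% under hsa-miR-199a-3p. Ccna2, cyclin A2, had 4466 and 6632 reads under the microRNAs, against 2304 in cel-miR-67 cells and 1814 in mock cells. Rrm1, a subunit of ribonucleotide reductase and the gene of the list with the most reads, had 6530 and 9304 reads under the microRNAs, against 5568 in cel-miR-67 cells and 4271 in mock cells. Pcna, the sliding clamp of replication, had 3984 and 6143 reads, against 2714 in cel-miR-67 cells and 2514 in mock cells. In the same libraries Hist1h1c, Hist1h1d and Hist1h1e lay below both controls, while Hist1h1a and Hist1h1b, with few reads, lay above both under hsa-miR-199a-3p.

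Genes that process histone messages lay on both sides of the controls. Of 13 measured genes, 7 lay above and 3 below both controls under hsa-miR-590-3p, and 6 above and 4 below under hsa-miR-199a-3p (10 above and 1 below by total counts), and none met the criterion. Of all measured genes, 35.6% lay above and 36.6% below in the hsa-miR-590-3p library, and 40.2% and 41.9% in that of hsa-miR-199a-3p, so the hsa-miR-199a-3p counts by TMM were near the background. The median log2 ratio was 0.12 over cel-miR-67 and 0.08 over mock in hsa-miR-590-3p cells and 0.06 and 0.13 for hsa-miR-199a-3p. Slbp, the protein that binds the histone stem-loop, had 1041 and 1448 reads under the microRNAs, against 861 in cel-miR-67 cells and 711 in mock cells. Npat, the coactivator of histone genes at S phase, had 1212 and 940 reads, against 1054 in cel-miR-67 cells and 867 in mock cells. Scaled, Npat stood at 34.3 CPM under hsa-miR-590-3p, above both controls, and at 23.3 CPM under hsa-miR-199a-3p, below both. The controls were at 31.5 CPM (cel-miR-67) and 28.5 CPM (mock). The most abundant, Sympk, a scaffold of the 3′ end cleavage complex, had log2 ratios of -0.30 over cel-miR-67 and -0.10 over mock in hsa-miR-590-3p cells, and of -0.07 and 0.13 in hsa-miR-199a-3p cells. Srrt, which acts with the cap-binding complex, had log2 ratios of 0.18 and 0.21 in hsa-miR-590-3p cells and of 0.52 and 0.56 in hsa-miR-199a-3p cells, in the same order.

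Among 8 chaperones and import factors of H1, 4 lay above and 0 below both controls under hsa-miR-590-3p, and 3 above and 2 below under hsa-miR-199a-3p. Total counts put 6 above under hsa-miR-590-3p and 5 above under hsa-miR-199a-3p. Beside the 35.6% of all genes above and 36.6% below in hsa-miR-590-3p cells, and the 40.2% above and 41.9% below in hsa-miR-199a-3p cells, the hsa-miR-199a-3p count above was near the background. The median log2 ratio was 0.13 over cel-miR-67 and 0.00 over mock for hsa-miR-590-3p. For hsa-miR-199a-3p it was 0.09 and 0.01, and none of the 8 met the criterion. Kpnb1, importin beta, which carries H1 into the nucleus with Ipo7, was the most abundant and had 19034 and 14027 reads under the microRNAs, against 17787 in cel-miR-67 cells and 15756 in mock cells. Ptma, prothymosin alpha, an acidic chaperone of H1, had 16120 and 21607 reads, against 12945 in cel-miR-67 cells and 11401 in mock cells. Of 11 proteins that compete with H1 for nucleosomes, 8 lay above and 1 below both controls under hsa-miR-590-3p, and 5 above and 4 below under hsa-miR-199a-3p, with median log2 ratios over cel-miR-67 and mock of 0.29 and 0.17 in hsa-miR-590-3p cells and of 0.18 and -0.02 for hsa-miR-199a-3p. The hsa-miR-199a-3p counts were near the 40.2% above and 41.9% below of all genes, and the hsa-miR-590-3p counts stood beside 35.6% above and 36.6% below. Hmgb2, a high-mobility-group protein of proliferating cells, met the criterion under hsa-miR-199a-3p with 5939 reads, against 1601 in cel-miR-67 cells and 1270 in mock cells, and had 3008 under hsa-miR-590-3p. Hmgb1, its most abundant relative, had log2 ratios of 0.14 over cel-miR-67 and 0.13 over mock in hsa-miR-590-3p cells, and of 0.18 and 0.17 in hsa-miR-199a-3p cells. Hmgn1, a nucleosome-binding protein and the next most abundant, had 0.38 and 0.17 in hsa-miR-590-3p cells, and 0.82 and 0.61 in hsa-miR-199a-3p cells.

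**Figure D5:**
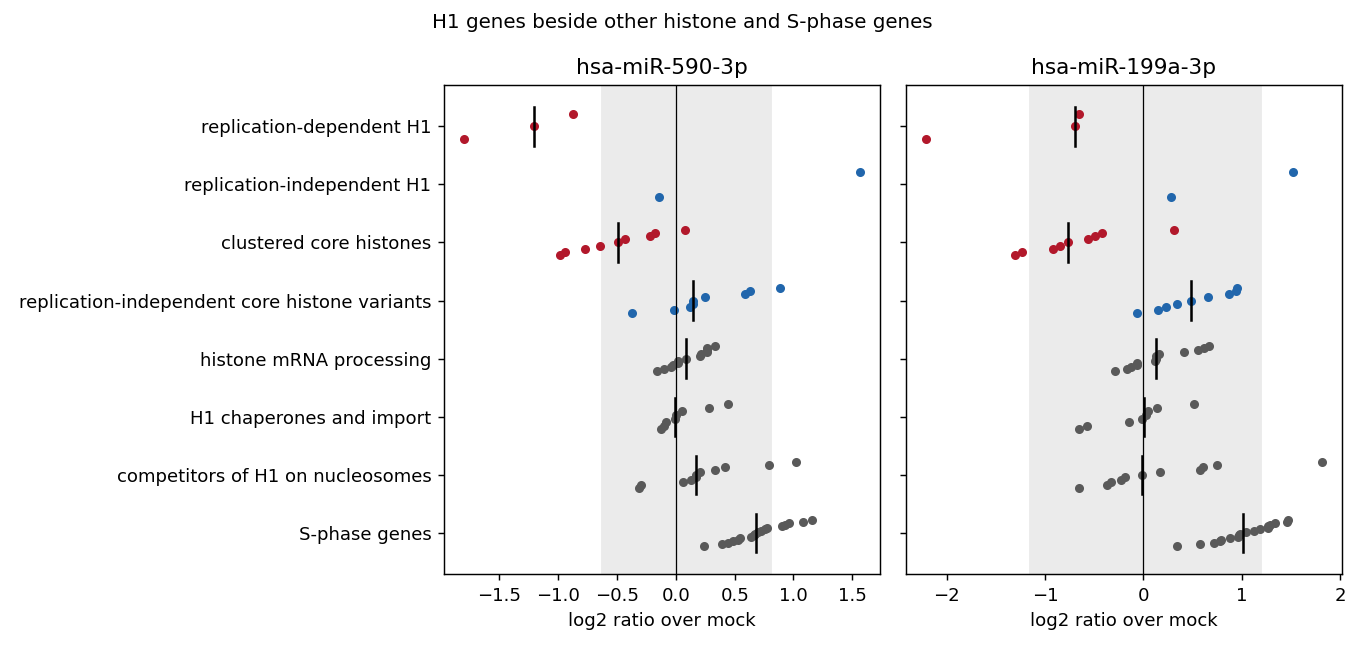
Log2 CPM ratio over mock of each measured member of 8 gene lists in the hsa-miR-590-3p (left) and hsa-miR-199a-3p (right) library, with black bars at the median of lists of 3 or more genes and a grey band holding the central 95% of all measured genes. Replication-dependent H1 and clustered core histone genes lie mostly left of 0, and all 18 S-phase genes right of it.

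Markers of the cultured cells differed between the same libraries. Cardiomyocyte markers summed to 36238 CPM in hsa-miR-590-3p cells and 35016 CPM in hsa-miR-199a-3p cells, against 49102 CPM in cel-miR-67 cells and 53701 CPM in mock cells, and 8 of 8 lay below both controls under each microRNA, with none at 0 reads. Of all measured genes, 36.6% lay below both controls under hsa-miR-590-3p and 41.9% under hsa-miR-199a-3p. Nppa, Pln and Ryr2 met the criterion on the lower side under hsa-miR-199a-3p, and Myh6 and Actc1, the sarcomere genes with the most reads of the list, had 512243 and 256370 reads under hsa-miR-590-3p and 552957 and 282356 under hsa-miR-199a-3p, against 610770 and 308641 in cel-miR-67 cells and 614924 and 312676 in mock cells. Fibroblast markers summed to 11200 and 11659 CPM, against 9896 and 10396 CPM in the controls, and 3 of 7 lay above both controls under each microRNA, near the 35.6% and 40.2% of all genes. Col1a1, the collagen gene with the most reads, was among these under each microRNA. Of the 7, 2 lay below both controls under hsa-miR-590-3p and 4 under hsa-miR-199a-3p, where Postn met the criterion. The median log2 ratio of the fibroblast list was 0.09 over cel-miR-67 and 0.12 over mock in hsa-miR-590-3p cells. In hsa-miR-199a-3p cells it was -0.82 and -0.68, although the sum was higher than in either control. Endothelial markers summed to 186 and 158 CPM, against 161 and 216 CPM, smooth muscle and pericyte markers to 704 and 749 CPM, against 758 and 682 CPM, and leukocyte markers to 5.74 and 7.20 CPM, against 7.80 and 17.7 CPM. Of 4 erythroid markers, Hbb-b1 had 0 reads in all libraries, and the list summed to at most 0.372 CPM. Rgs5, a pericyte marker with 43 reads in hsa-miR-199a-3p cells, against 78 in cel-miR-67 cells and 72 in mock cells, met the criterion on the lower side. Cardiomyocyte markers and Hist1h1c, Hist1h1d and Hist1h1e thus lay below both controls in the same libraries. Their part in the H1 values was not tested, and in such bulk samples fewer cells of a type and less RNA per cell cannot be told apart.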

How the data were processed

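RNA was measured in 4 libraries, 1 per condition, grouped by the treatment in the labels. Each deposited table lists 36065 RefSeq transcript records with a count of total reads, which includes reads shared with other records, a count of uniquely placed reads, the record length and the authors' RPKM, per the file headers. The submitters' processing notes name CASAVA 1.8 and mm8 without a role. The mapping program and the use of strand are not given in the sources used here. The H1 genes were found by the symbol in the record title. For all other genes the current symbol was taken by accession from a RefSeq table (GRCm38.p6) for 27926 records, and reads were summed per gene.

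TMM factors came from edgeR 4.0.16 under R 4.3.3, of which nothing else was used, and log2 ratios had a prior count of 0.5. With 0 residual degrees of freedom no test was run. Ratio intervals are exact conditional binomial, level intervals Poisson and share intervals Clopper-Pearson, each at 95%. The ratios and the criterion were tested on simulated data. Alternatives were the size factors of DESeq2 1.42.0, total counts, unique reads, the authors' RPKM (with 0.01 added before the log), a prior count of 2, other minimum levels, the fullest record per gene, the mean of both controls and, added after seeing the data, RPKM on annotated spans. Ratios, intervals and lists were computed in Python 3.11.15 with scipy 1.17.1 and pandas 2.3.3.

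Named genes were all 7 H1 genes, the germline H1 genes, of each list the members past the criterion and the 2 with the most reads (minor cell type markers are given as sums), and the 3 genes most like each measured H1 gene. Of the genes most like Hist1h1c, 1 is not reported here. The remaining genes named (Hist1h4i, H2afx, Cenpa, Slbp, Npat) were chosen after their values were seen. Members and lists were chosen with earlier results of these data known.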

Additional observations from a re-analysis of the deposited data

How the results depend on the processing

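No paired analysis was possible because each condition has 1 library and the labels give no replicate numbers. For the same reason no replicate could be left out. Over 5 alternative settings, 128 of 140 ratios of single H1 genes stayed within their counting interval and 12 did not, all of H1f0 or Hist1h1c under total-count scaling or the authors' RPKM. H1fx met the criterion under both microRNAs in every alternative. Hist1h1e and, under hsa-miR-590-3p, Hist1h1d met it in every alternative but a minimum mean of 5 CPM, which removes both genes and leaves 0 lower. Without a filter on low counts 2 genes were higher under hsa-miR-199a-3p, H1fx and Hist1h1b.

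Before the prior count, total-count scaling raises the log2 ratio of each microRNA over each control by 0.07 to 0.11 relative to TMM. By total-count scaling the replication-dependent sum stood, on the log2 scale, at -0.81 over mock in hsa-miR-590-3p cells and at -0.47 and -0.55 over cel-miR-67 and mock in hsa-miR-199a-3p cells, against -0.90, -0.56 and -0.67 by TMM. The authors' RPKM gave -0.79, -0.43 and -0.51. The replication-independent sum stood at 0.10 and 0.036 over cel-miR-67 and mock in hsa-miR-590-3p cells and at 0.51 and 0.45 in hsa-miR-199a-3p cells by total counts, and at 0.18, 0.11, 0.56 and 0.50 by RPKM, against 0.03, -0.06, 0.42 and 0.34 by TMM, so its direction over mock under hsa-miR-590-3p depends on the scaling. The replication-dependent share of H1 was 20.2%, 18.7%, 31.1% and 31.2% with unique reads and 27.1%, 25.7%, 40.8% and 41.1% by RPKM, in hsa-miR-590-3p cells, then those with hsa-miR-199a-3p, with cel-miR-67 and mock-treated. With the annotated span in place of the record length, an alternative chosen after seeing the data, it was 44.4%, 42.3%, 60.0% and 60.4% in the same order.

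With unique reads, 4 clustered core histones lay below both controls in hsa-miR-590-3p cells and 5 in hsa-miR-199a-3p cells, against 7 and 8, and the number of genes measured on unique reads is not given. Of the replication-independent core variants, 1 lay below under hsa-miR-590-3p by total counts and by unique reads, and 0 under hsa-miR-199a-3p by total counts. By total counts under hsa-miR-199a-3p, 10 histone processing genes lay above and 1 below both controls, and 5 chaperones above. Under hsa-miR-590-3p 6 chaperones lay above by total counts. Depth limits Hist1h1a and Hist1h1b most, which rest on 4 to 24 reads per library.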
